A study of Mus musculus with 4 samples.

Results

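The genes described here encode restraints on mTORC1, and they comprise Ddit4, the sestrin genes Sesn1, Sesn2 and Sesn3, Tsc1, Tsc2, Deptor, Depdc5, Eif4ebp1 and Akt1s1. They were picked by symbol, and all 10 were found among the 55487 genes of the deposited count table, each in 1 row. The libraries came from tumours of AXT cells, an osteosarcoma line of the mouse obtained by introducing c-MYC into marrow stromal cells that lack the Ink4a/Arf locus. Cells in matrigel were placed in C57BL/6scid mice, which lack mature T and B cells, and the tumours were removed at day 1. The control group was 1 library of Mock AXT cells, labelled WT. The other group was 3 libraries of HIF-1alpha KO cells, labelled KO1-1, KO1-2 and KO2 and named c11, c15 and c22 in the table. The sources used here do not say which label belongs to which column, whether each line is 1 clone or whether each tumour is 1 animal.

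mTORC1 is the kinase complex through which growth factors, amino acids, energy and oxygen set the rate of protein synthesis. Growth factor signals reach it through the small GTPase RHEB, which the TSC complex switches off, and amino acid signals reach it through the Rag GTPases at the lysosome, which the GATOR1 complex switches off. DDIT4, also called REDD1, acts through the TSC complex and is a textbook target of HIF-1, among other factors. The sestrins act mainly upstream of GATOR1 and are known targets of p53, FOXO factors and ATF4. DEPTOR and PRAS40, the product of Akt1s1, bind the complex itself. The product of Eif4ebp1, 4E-BP1, is an mTORC1 substrate that blocks cap-dependent translation when it is not phosphorylated.

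Ddit4 and Sesn2 stood furthest from mock among the 10 genes, in opposite directions. The sequences upstream of their start sites are therefore shown, with the core of the hypoxia response element in capitals. The Ddit4 window is chr10:59951835-59952020 and the Sesn2 window chr4:132510502-132510706, both from RefSeq promoters of GRCm38.p6 and read on the minus strand, 5′ to 3′, ending before the first base of the gene in the deposited table.
Ddit4: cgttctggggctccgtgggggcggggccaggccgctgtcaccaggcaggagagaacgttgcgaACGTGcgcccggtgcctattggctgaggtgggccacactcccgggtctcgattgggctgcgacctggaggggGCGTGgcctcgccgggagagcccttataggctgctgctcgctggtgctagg
Sesn2: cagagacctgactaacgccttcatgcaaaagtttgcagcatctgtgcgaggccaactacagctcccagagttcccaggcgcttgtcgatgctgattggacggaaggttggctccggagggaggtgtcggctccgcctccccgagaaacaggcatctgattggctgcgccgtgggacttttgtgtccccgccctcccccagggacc
The letters ACGTG and GCGTG were searched on both strands of the 250 bases before each RefSeq start. For both genes that start lies within the deposited gene, so the end of the searched stretch is not shown. Ddit4 held 1 match to each motif, from 187 to 183 and from 115 to 111 bases before the RefSeq start, and Sesn2 held none. Either motif was present in 38.6% of the 32851 RefSeq promoters of that length, ACGTG in 16.6% and GCGTG in 28.2%. RefSeq promoters were given for 8 of the 10 genes, not for Deptor or Eif4ebp1, and 6 of the 8 held a match to either motif. ACGTG was found in Ddit4 alone. GCGTG was found once each in Ddit4, Tsc1, Tsc2 and Depdc5, at 2 places in Akt1s1 and at 2 places before the downstream of the 2 starts of Sesn1. TGATGCAAT, a form of the composite element bound by ATF4 with C/EBP factors, is present in 0.167% of promoters, and the looser TGATGNAAN in 3.44%. Neither was found in the searched stretches of any of the 8 genes. For Akt1s1, Sesn3 and both starts of Sesn1, the searched stretch lay wholly within the deposited gene. A match is a description of the letters only, and the window is short.

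Total counts were between 12383719 and 13193264 per library, and levels are given as CPM, counts relative to the library total, after scaling by TMM, a correction for library composition. A count of 0 allowed at most 0.228 to 0.242 CPM, for counting error only. All 10 genes passed the filter on low counts, the lowest value being 86 counts. Hif1a (chromosome 12, 73901375 to 73947530, GRCm38) was at 107 CPM for mock, against 103 (c11), 98.9 (c15) and 22.7 CPM (c22). RNA of the targeted gene was thus clearly lower only in c22, and since the count covers all exons it says nothing on whether the protein was intact. The 10 osteoblast lineage markers summed to 4480 CPM for mock and 3900 to 10200 CPM for knockout. Of these, 5 were below mock in all 3 libraries, Runx2 among them, 4 were mixed and 1 was above. The 1 above was Col1a1, at 861 CPM for mock, against 1890 (c11), 1100 (c15) and 4770 CPM (c22). Later markers differed: Bglap had 18 counts for mock, against 0 (c11), 3 (c15) and 14 counts (c22). Ibsp was at 56.7 CPM for mock, against 48.1 (c11), 14.6 (c15) and 39.8 CPM (c22). Dmp1 was at 75.4 CPM for mock, against 0.612 (c11), 16.5 (c15) and 9.47 CPM (c22). Spp1 was at 365 CPM for mock, against 162 (c11), 400 (c15) and 289 CPM (c22). Markers of host cells were lower in the knockout libraries. Summed over 8 skeletal muscle genes they stood at 111 CPM in mock and 1.9 to 35.6 CPM in knockout, with 7 below mock in all 3 libraries and Myh1, Myh4 and Tnnt3 at 0 counts in c11 and c15 and Ckm in c15. Summed over the 5 erythroid genes tested they stood at 116 CPM against 1.61 to 41.7 CPM, with 5 of 5 below mock in all 3 and Hba-a2 at 0 counts in c11 and c15. The 9 macrophage genes summed to 791 CPM against 242 to 435 CPM, 8 of them below mock in all 3. Endothelial genes (5, summing to 4.19 CPM in mock) and adipocyte genes (4, summing to 0.887 CPM) were near the limit of detection. The part of these cells in the values below was not tested. In such bulk tissue, fewer cells of a type and less RNA per cell cannot be told apart.

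**Figure D1:**
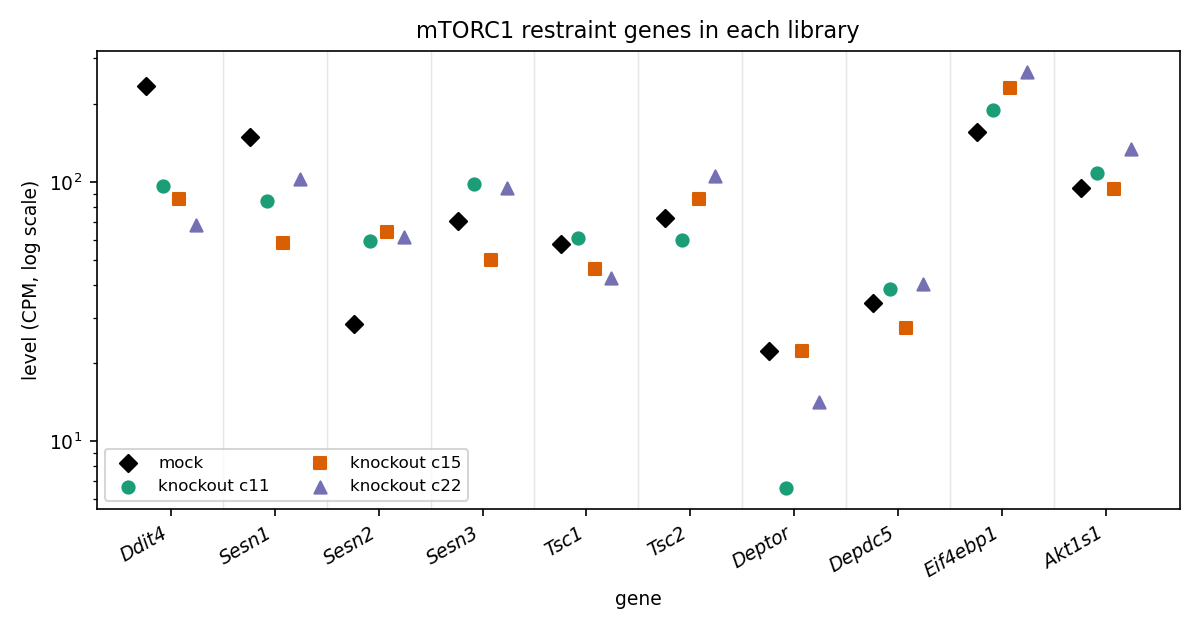
Level of each of the 10 genes (CPM, log scale) in the mock library (diamonds) and in the knockout libraries c11 (circles), c15 (squares) and c22 (triangles). The mock value of Ddit4 (234 CPM) and of Sesn1 (149 CPM) lies above all 3 knockout values, and that of Sesn2 (28.3 CPM) lies below them.

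The comparison asked which of these transcripts differ between tumours with and without HIF-1alpha. With edgeR's quasi-likelihood test over 15706 genes, 0 of the 10 passed an adjusted p of 0.05, where 0 genes of the whole table (0%) passed as higher and 1 (0.00637%) as lower. At an unadjusted p under 0.05 there were 2 of the 10, Ddit4 (lower, as were 2.56% of all genes) and Sesn2 (higher, as were 1.12%), together against 3.68% of all genes. The 10 were chosen with earlier results of these data known, so the shares here are a description and not an independent comparison. Values of all 3 knockout libraries lay on the same side of mock for 5 of the 10, against 43.6% of all genes tested: Sesn2 and Eif4ebp1 above (21.4% of all genes) and Ddit4, Sesn1 and Deptor below (22.2%). The share on 1 side is near the background and is no result about the group. The median log2 fold change (knockout minus mock) was 0.12 for the 10 genes and 0.05 for all genes, and the median size without sign was 0.40 against 0.31. Without Ddit4 and Sesn2 that size was 0.23. The median of the 10 genes had no stable sign, being 0.02 without c11, 0.20 without c15 and -0.02 without c22. The mock library has no replicate and was assumed to vary as the knockout libraries do, and an exact permutation of the 4 libraries could not give a one-sided p under 0.25.

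Ddit4 (chromosome 10, 59949669 to 59951834, minus strand) was at 234 CPM for mock, against 96.5 (c11), 85.9 (c15) and 68.3 CPM (c22). All 3 knockout libraries were low, with none near mock, and the exact 95% Poisson interval for counting error, 226 to 243 CPM in mock, lay far from the highest knockout interval, 91.2 to 102 CPM. The knockout mean was 83.5 ± 14.3 CPM (SD, n = 3), 2.81-fold lower than mock. The log2 fold change was -1.49 (SE 0.31) and did not pass edgeR's test (adjusted p = 0.418), although only 0.777% of all genes tested had a smaller p. DESeq2 called Ddit4 lower (adjusted p = 0.0263), the only call among the 10, where DESeq2 called 0.42% of all genes lower and 0.726% in either direction. That call was lost without c11 (DESeq2 adjusted p = 0.365) or c22 (0.242) and held without c15 (0.014). Ddit4 therefore lay below mock in every knockout library, by a margin whose call depended on the test and on single libraries.

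The paralog of Ddit4, Ddit4l, which encodes REDD2, a related restraint on mTORC1, was scarce. It had 32 counts for mock, against 21 (c11), 10 (c15) and 2 counts (c22), or 2.58 CPM against 0.84 ± 0.729 CPM. Its log2 fold change of -1.60 (SE 0.93) did not pass edgeR's test (adjusted p = 1). Per exonic length, it made up 0.658% of the summed level of the pair in mock and 0.137% to 0.992% in the knockout libraries, so nearly all RNA of the pair was from Ddit4.

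Among the sestrin genes, Sesn2, whose product also senses leucine, was the one above mock in all 3 knockout libraries. Sesn2 (chromosome 4, 132492032 to 132510501, minus strand) was at 28.3 CPM for mock, against 59.3 (c11), 64.0 (c15) and 61.5 CPM (c22). These 3 values spanned a 1.08-fold range with overlapping counting intervals, and the coefficient of variation of 3.89% was the smallest of the 10 genes. The knockout mean of 61.6 ± 2.4 CPM (SD, n = 3) was 2.18-fold the mock level. The log2 fold change of 1.12 (SE 0.33) did not pass edgeR's test (adjusted p = 0.841) or DESeq2's (0.247).

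Sesn1, the sestrin gene best known as a p53 target, lay on the other side of mock. Sesn1 (chromosome 10, 41809935 to 41908424, plus strand) was at 149 CPM for mock, against 84.5 (c11), 58.3 (c15) and 103 CPM (c22). All 3 knockout values were below mock, but they differed 1.77-fold among themselves. The mean was 81.9 ± 22.5 CPM, with a log2 fold change of -0.87 (SE 0.38, edgeR adjusted p = 1). The summed muscle markers had the same order over the libraries, with 111 CPM for mock and 12.2, 1.9 and 35.6 CPM for c11, c15 and c22. The erythroid and macrophage sums did not, being lowest in c11 (1.61 and 242 CPM) and not in c15 (4.25 and 334 CPM). The part of these cells in the level of Sesn1 was not tested.

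Sesn3, whose gene is a FOXO target, had no common direction. Sesn3 (chromosome 9, 14275067 to 14333101, plus strand) was at 70.7 CPM for mock, against 98.1 (c11), 49.8 (c15) and 94.7 CPM (c22). Mock lay between the knockout libraries, with c15 low and the other two high, and the fit gave a log2 fold change of 0.19 (SE 0.47, edgeR adjusted p = 1).

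Levels of different genes can be compared only per length, and here CPM were divided by the exonic length in kilobases. On that scale the makeup of the sestrin family differed between mock and knockout more than its sum. Summed over the family the level was 50.3 CPM per kb for mock, against 44.7 (c11), 36.3 (c15) and 49.8 CPM per kb (c22). Sesn1 made up 74.6% of that sum for mock, against 47.5% (c11), 40.3% (c15) and 52.0% (c22). Sesn2 made up 16.2% for mock, against 38.2% (c11), 50.7% (c15) and 35.6% (c22). In c15 it was the highest of the sestrin genes on that scale, which uses all annotated exons and not the transcript expressed. The ratio of Sesn1 to Sesn2 per length, which does not depend on how libraries are scaled, was 4.60 in mock and 1.17 ± 0.341 (SD, n = 3) in knockout. The ratio of Ddit4 to Sesn2 was 16.4 for mock, against 3.22 (c11), 2.65 (c15) and 2.20 (c22), a 6.09-fold difference between mock and the knockout mean. Sesn2 lay above mock in all 3 knockout libraries, and Sesn1 and Ddit4 below. Mock therefore had to lie outside the knockout range for both ratios, which is no separate observation. With 1 mock library neither ratio was tested.

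The subunit genes of the TSC complex had no common direction between lines. Tsc1 (chromosome 2, 28641228 to 28691167, plus strand), the gene of hamartin, was at 57.7 CPM for mock, against 60.7 (c11), 46.2 (c15) and 42.7 CPM (c22) (log2 fold change -0.21, SE 0.35, edgeR adjusted p = 1). Tsc2 (chromosome 17, 24595816 to 24632630, minus strand), the gene of the GTPase-activating subunit tuberin, was at 72.7 CPM for mock, against 59.8 (c11), 86.4 (c15) and 106 CPM (c22) (log2 fold change 0.21, SE 0.41, edgeR adjusted p = 1). For each gene mock lay within the knockout range. The span of Tsc2 overlaps that of Pkd1 on the other strand by 693 bases, and since the strand setting of the counting was not given, reads there may not have been kept apart. The third subunit gene, Tbc1d7, had 13.3 CPM for mock and a knockout mean of 15.3 ± 2.39 CPM.

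Depdc5, which encodes a core subunit of GATOR1, did not move in a common direction either. Depdc5 (chromosome 5, 32863701 to 32994236, plus strand) was at 34.2 CPM for mock, against 38.5 (c11), 27.4 (c15) and 40.5 CPM (c22). Its log2 fold change of 0.05 (SE 0.38) was the nearest to 0 of the 10. The other GATOR1 genes, Nprl2 and Nprl3, had mock levels of 16.1 and 39.4 CPM and knockout means of 15 ± 2.4 and 35.1 ± 8.42 CPM, within the spread of the knockout libraries.

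The genes of the inhibitors bound to the complex differed in their spread. Deptor (chromosome 15, 55112317 to 55259271, plus strand) was at 22.3 CPM for mock, against 6.58 (c11), 22.2 (c15) and 14.2 CPM (c22). It was low in c11, within the counting error of mock in c15 and between them in c22, a 3.37-fold range and the widest of the 10 genes. Its fitted difference was -0.64 on the log2 scale (SE 0.66, edgeR adjusted p = 1). It was -0.29 without c11 and -1.10 without c15 in edgeR, so the size rested on which line was included. Akt1s1 (chromosome 7, 44848991 to 44855421, plus strand) was at 94.8 CPM for mock, against 108 (c11), 94.3 (c15) and 134 CPM (c22) (log2 fold change 0.24, SE 0.34, edgeR adjusted p = 1). Its span overlaps that of Tbc1d17 on the other strand by 89 bases.

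The core subunits of mTORC1 gave a reference for these inhibitors. Rptor, the gene of the scaffold RAPTOR that recruits substrates, was at 99.2 CPM for mock and at a knockout mean of 94.5 ± 1.28 CPM (SD, n = 3), the most even of the genes described. Mlst8 was at 21.9 CPM for mock, against 22.3 (c11), 29.2 (c15) and 34.5 CPM (c22). Mtor, the kinase gene, was at 31.1 CPM for mock and, for the knockout libraries in the same order, at 31.1, 78.6 and 25.2 CPM, so that c15 alone was high. Its log2 fold change of 0.53 (SE 0.71, edgeR adjusted p = 1) turned to -0.15 without c15.

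Downstream of mTORC1, Eif4ebp1 was besides Sesn2 the other of the 10 genes above mock in all 3 knockout libraries. It is a known ATF4 target in some cell types, besides being the gene of the classic mTORC1 substrate. Eif4ebp1 (chromosome 8, 27260329 to 27276674, plus strand) was at 156 CPM for mock, against 189 (c11), 231 (c15) and 267 CPM (c22). The lowest knockout value, in c11, exceeded mock by 0.27 on the log2 scale, less than the SE of the fit. The mean of 229 ± 39.1 CPM (SD, n = 3) was 1.46-fold the mock level, with a log2 fold change of 0.55 (SE 0.34, edgeR adjusted p = 1).

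The paralog Eif4ebp2, which encodes 4E-BP2, was at 310 CPM for mock and, for the knockout libraries in the same order, at 234, 240 and 243 CPM. These 3 values were nearly equal and all below mock, with a log2 fold change of -0.37 (SE 0.27, edgeR adjusted p = 1). Eif4ebp3 had at most 1 count in any library, under the limit that 0 counts allow. The ratio of Eif4ebp1 to Eif4ebp2 per length was 1.33 for mock, against 2.12 (c11), 2.54 (c15) and 2.89 (c22). Eif4ebp1 lay above mock and Eif4ebp2 below it in all 3 knockout libraries. Mock therefore had to have the lowest ratio, which is no separate observation. The sum of the 3 genes was 125 CPM per kb in mock and 127, 147 and 164 CPM per kb in the knockout libraries, so that c11 was close to mock and c22 furthest from it.

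**Figure D2:**
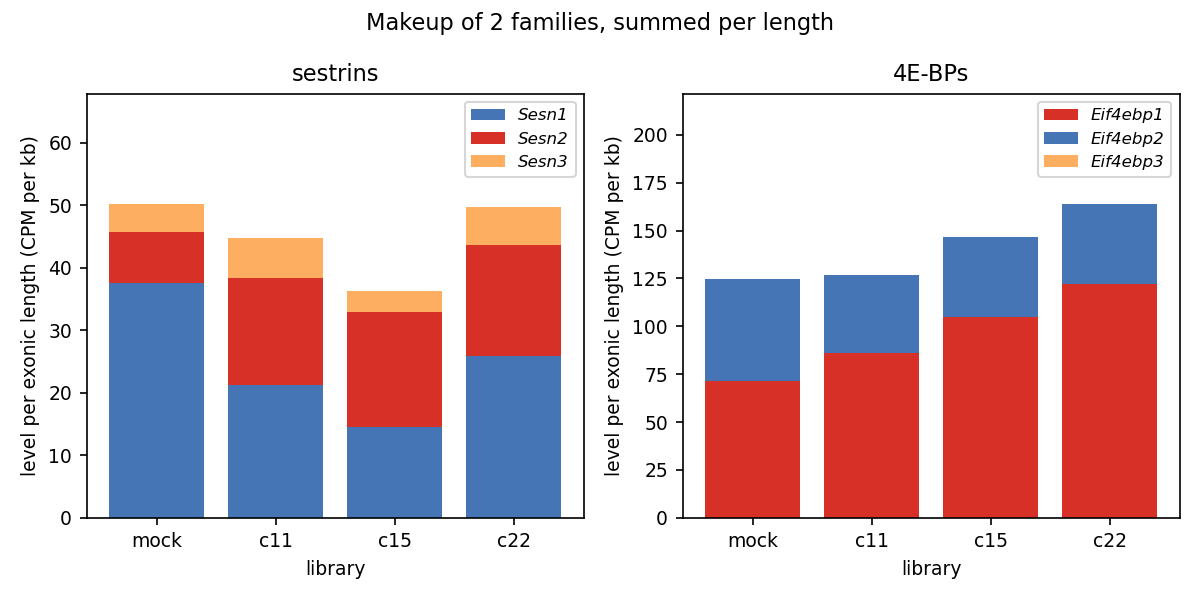
Stacked level per exonic length (CPM per kb) of the sestrin genes (left) and the 4E-BP genes (right), 1 bar per library. Sesn1 fills 74.6% of the mock sestrin bar and at most 52.0% of a knockout bar, and Eif4ebp1 fills 57.1% of the mock 4E-BP bar and at least 68.0% of a knockout bar.

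**Figure D3:**
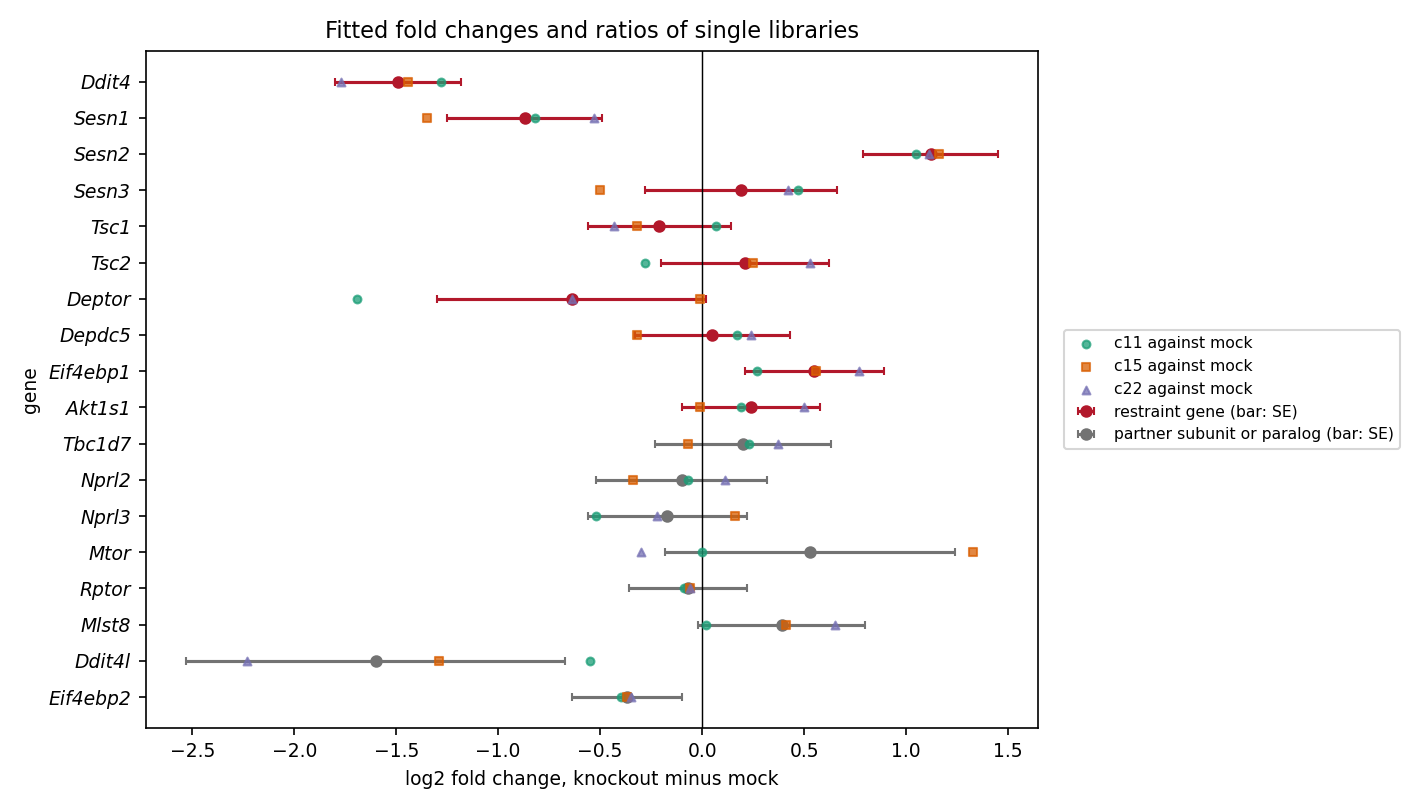
Log2 fold change (knockout minus mock) of the 10 genes (red) and of 8 partner subunit or paralog genes (grey), with the SE of the fit as bars and the ratio of each knockout library to mock (CPM with 0.5 added) as small symbols. The 3 libraries lie close together for Sesn2 (1.05 to 1.16) and far apart for Deptor (-1.69 to -0.01) and Mtor (-0.30 to 1.33).

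The order of the 10 genes by level per length also shifted at the top. In mock it was led by Ddit4 at 134 CPM per kb, followed by Eif4ebp1 at 71.3, Sesn1 at 37.5 and Akt1s1 at 30.9 CPM per kb. In all 3 knockout libraries Eif4ebp1 came first, with a mean of 104 ± 17.8 CPM per kb (SD, n = 3). Ddit4 (47.6 ± 8.13) and Akt1s1 (36.6 ± 6.65) followed and changed places in c22, and Sesn1 (20.6 ± 5.65) and Sesn2 (17.7 ± 0.69) did not differ beyond their spread. Below them, without overlap with Sesn2, stood Tsc2 (8.72 ± 2.39), and then Sesn3 (5.30 ± 1.76), Tsc1 (4.21 ± 0.807), Depdc5 (3.01 ± 0.603) and Deptor (1.61 ± 0.88). From Tsc2 down, the range of 1 SD around each mean overlapped that of the next gene. Ddit4 made up 44% of the summed level per length of the 10 genes for mock, against 23.3% (c11), 20.5% (c15) and 14.2% (c22).

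Of 69 other genes on lists of the mTORC1 pathway, 67 were tested: partners and paralogs of the 10 genes (8), GATOR2, KICSTOR and amino acid sensors (11), Rag GTPases, Ragulator and folliculin genes (12), RHEB and mTORC1 effectors (14), mTORC2 subunits (3), PI3K and AKT input (12) and LKB1 and AMPK input (7). With edgeR 0 of the 67 passed in either direction, where 0% of all genes passed as higher and 0.00637% as lower. Of the 67, 0 had an unadjusted edgeR p under 0.05, against 3.68% of all genes. DESeq2 called 0 of the 67, against 0.726% of all genes. Without c15, 3 of them (4.48%) had an unadjusted edgeR p under 0.05, against 8.64% of all genes in that fit. All 3 knockout libraries lay on 1 side of mock for 22 of the 67, or 32.8%, against 43.6% of all genes. Their median log2 fold change was 0.01, and the median size 0.18, against 0.31 for all genes, 0.40 for the 10 genes and 0.23 for the 10 genes without Ddit4 and Sesn2. Single values ran from -1.60 for Ddit4l to 1.74 for Irs2, an insulin receptor substrate gene named after its values were seen. By list, medians ran from -0.08 for the partners and paralogs to 0.06 for PI3K and AKT input. The LKB1 and AMPK genes had the smallest median size, 0.03, and none of the 7 had all its knockout values on 1 side of mock.

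Ddit4 and Sesn2 were set beside lists of HIF-1 targets and of the ATF4 and CHOP axis, and Sesn1 beside p53 targets. The lists were chosen with earlier results of these data known. Of 12 HIF-1 targets, 11 were below mock in all 3 knockout libraries (22.2% of all genes) and DESeq2 called 8 lower (0.42% of all genes). Their median log2 ratios to mock were -2.20 (c11), -2.41 (c15) and -2.37 (c22), against -1.28, -1.44 and -1.77 for Ddit4. Ddit4 was thus less far below mock than the median of that list in each library. The list spread from a log2 fold change of -5.63 for Ankrd37 to -0.1 for Vegfa, and Ddit4, at -1.49, lay within it. Of 10 genes of the ATF4 and CHOP axis, 9 were above mock in all 3 (21.4% of all genes) and DESeq2 called 4 higher (0.306% of all genes), with median ratios of 1.32, 1.63 and 1.03. Sesn2, with ratios of 1.05, 1.16 and 1.11, lay below that median in c11 and c15 and above it in c22. Ddit4 lay on the other side of mock from that median in each library. Atf4 itself, at 0.78, 0.91 and 0.81, was about as even between the lines as Sesn2. Of 7 p53 targets tested, 3 were above and 3 below mock in all 3 libraries (median log2 fold change 0.04), while Sesn1, at -0.82, -1.35 and -0.53, was below. These comparisons share the mock library.

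**Figure D4:**
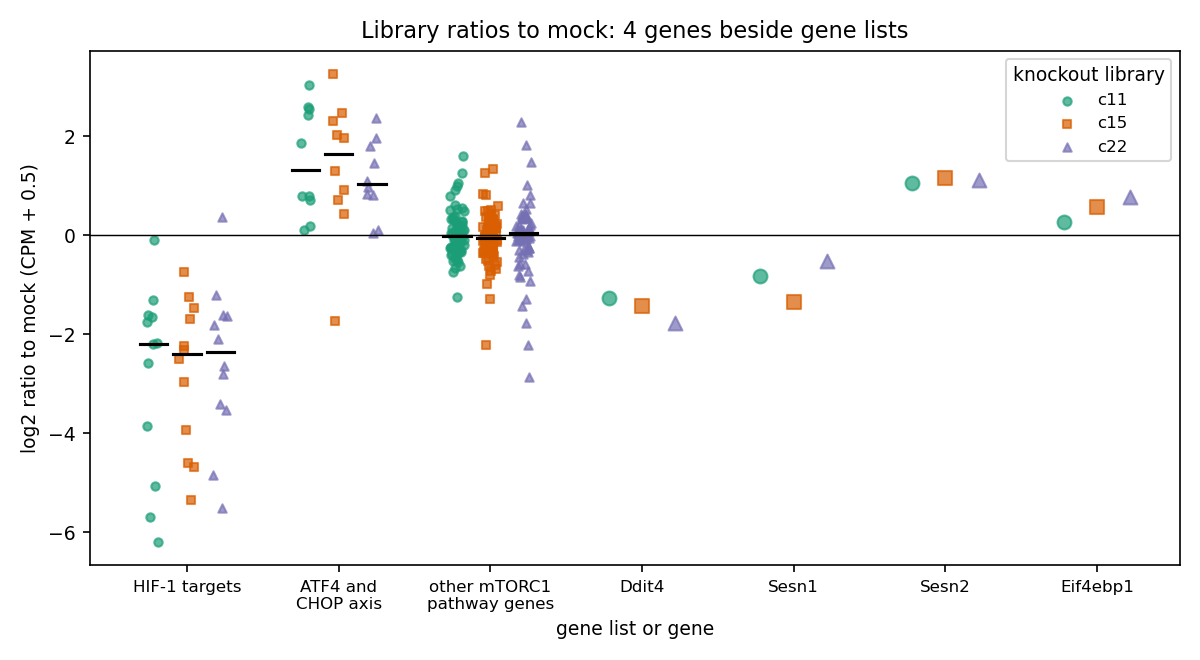
Log2 ratio of each knockout library to mock (CPM with 0.5 added) for genes of 3 lists (small symbols, black bars at the median of each library) and for 4 genes (large symbols). Ddit4 lies at -1.28 to -1.77 beside HIF-1 target medians of -2.20 to -2.41, and Sesn2 at 1.05 to 1.16 beside ATF4 and CHOP axis medians of 1.03 to 1.63.

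The genes most like Ddit4 and the sestrins in pattern were sought among 10167 genes with a mean of at least 5 CPM, by the largest difference in the 3 log2 ratios to mock, over 4 libraries. Nearest to Ddit4 were Slc2a1, the glucose transporter GLUT1 (largest difference 0.19), the kinase gene Jak2 (0.23) and Hilpda, a lipid droplet gene (0.26). Slc2a1, which is on the list of HIF-1 targets above, was at 252 CPM for mock, against 101 (c11), 105 (c15) and 81.9 CPM (c22). Nearest to Sesn2 were Amotl2 (0.15), Fads3 (0.16) and Tcam1 (0.19), and Amotl2 was at 37.0 CPM for mock and, for the knockout libraries in the same order, at 83.0, 92.9 and 77.3 CPM. None of the genes searched came within 0.1 of Ddit4 or of Sesn2 in all 3 ratios. Nearest to Sesn1 were Ppp1r3b (0.055), Abcd2 (0.13) and Fbxo10 (0.16), and nearest to Sesn3 were Ift22 (0.046), Dusp28 (0.068) and Stk17b (0.071).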

How the data were processed

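The 4 tumour samples gave poly(A) libraries that keep strand, according to the extract protocol. The authors deposited raw counts per Ensembl gene. The submitters' processing notes name GRCm38, featureCounts 1.6.3, HISAT2 2.1.0, SAMtools 1.9, Trimmomatic 0.38 and FastQC 0.11.7, and the strand and multi-mapping settings used are not given there. Columns were assigned by name, the knockout columns only to their group.

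filterByExpr kept 15706 of 55487 genes with 99.9% of counts. These were tested with edgeR 4.0.16 in R 4.3.3 (TMM, robust quasi-likelihood, 2-sided, Benjamini-Hochberg over all genes, threshold 0.05). Residual degrees of freedom were 2 and prior degrees of freedom 3.77. Nothing says that the samples came from separate cultures or animals, so p-values cover only the spread among these samples, which may be technical. DESeq2 1.42.0 and limma-voom (limma 3.58.1) were alternatives, as were other scalings, filters, pseudocounts and leaving out each knockout library. No library was a copy of another (chi-square per gene from 48.3 to 90.3). Exonic lengths came from GENCODE M21, whose coordinates matched for the 10 genes.

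The 10 genes and the lists were chosen with earlier results of these data known. Named genes were Hif1a, the 10, their partner subunits and paralogs, other pathway genes that passed a test, comparators on which a sentence turns, and the 3 genes nearest in pattern. Irs2 and the marker genes were named after their values were seen, and 1 marker is not reported here.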

Additional observations from a re-analysis of the deposited data

How the results depend on the processing

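Over the 10 genes, their partners and Hif1a, 275 of 285 fold changes kept their direction and their side of the threshold under the alternatives, 2 others being the DESeq2 calls of Ddit4 with all libraries and without c15. The sign turned when 1 knockout library was left out for Depdc5 (-0.06 to 0.21), Nprl2 (-0.22 to 0.02) and Mtor (-0.15 to 0.82). The median of the 10 genes ranged from -0.03 to 0.20. Ddit4 ranged from -1.60 to -1.36 and Sesn2 from 1.08 to 1.16. Of the 10 genes, DESeq2 called 1, and 0 to 1 with a library left out. At an unadjusted edgeR p under 0.05 there was 1 of the 10 without c11 (Ddit4), against 2.9% of all genes in that fit. There were 3 of the 10 without c22 (with Sesn1), against 3.25% of all genes in that fit. Over all genes, DESeq2 called 48 higher and 66 lower, and edgeR called 4 lower with no filter. Limma-voom and edgeR's earlier quasi-likelihood method called 0 higher and 0 lower (562 and 509 genes at an unadjusted p under 0.05). With 1 knockout library left out, edgeR called 0 in either direction (448, 1338 and 502 genes at an unadjusted p under 0.05 without c11, c15 and c22), and DESeq2 called 12 to 159 higher and 42 to 153 lower. DESeq2 with a library left out and the earlier method were added after seeing the data. Why the tests differed was not tested. All 90 library ratios of the 10 genes with another pseudocount (0.25, 1 or 2 CPM) moved by less than the spread between libraries, and no scaling moved the median of all genes by over 0.1. The mock library could not be left out. No paired analysis was possible because the mock group has 1 sample and its labels carry no number that ties it to a knockout sample. The counting intervals of the knockout libraries overlapped for Sesn2 (55.2 to 63.6, 59.8 to 68.5 and 57.3 to 65.9 CPM), so its spread is not resolved at this depth.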
